A study of Drosophila melanogaster with 12 samples.

Results

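The comparison described here is that of AGO1-bound miRNAs at 25°C, the usual temperature for keeping flies, with the same miRNAs at a lower and a higher temperature. It used all 12 of the 12 small RNA libraries of the study, which came from heads of Canton-S flies, a wild-type laboratory strain. Flies were entrained to 12:12 cycles of light and dark at a low (18°C), standard (25°C) or high (29°C) temperature. By the fly methods of the study, crosses were raised at 25°C, and newborn adults stayed there or were moved to 18°C or 29°C. If so, only the 25°C flies were not moved, and effects of temperature and of the move cannot be told apart. Heads were collected at ZT3, ZT9, ZT15 and ZT21, where ZT counts hours from lights on. Each temperature thus had 4 libraries and each combination of temperature and time had 1. The number of heads in a sample, and the age at collection and sex of the flies, were not given in the sources used here. The time points of a temperature served as its replicates, as in the methods of the study. The spread between them holds time of day as well as differences between samples, and the p-values set differences between temperatures against that spread. For each miRNA the 25°C level was set against the mean of the 18°C and 29°C levels on the log2 scale. This difference is 0 where the step from 18°C to 25°C equals the step from 25°C to 29°C, positive where 25°C lies above the midpoint and negative where it lies below.

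A miRNA is cut from a hairpin precursor, and one of the arms of the hairpin, named 5p or 3p, is usually kept by an Argonaute protein while the other is degraded. In Drosophila most miRNAs are loaded into AGO1, which then lowers the translation and stability of mRNAs with matching sites in their 3′ UTRs. Most hairpins are released by the nuclease Drosha. Those of mirtrons are instead short introns that become hairpins once they have been spliced out and debranched. In the fly head, miRNAs are known for roles in neurons and photoreceptors, in fat tissue and in the timing of daily behaviour. Flies cannot hold their own body temperature, and the study looked among AGO1-bound miRNAs for temperature-dependent ones that could target timeless, a core clock gene.

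The libraries held 4423511 to 16840372 miRNA reads. The 25°C libraries were on average the deepest, at 12676727 ± 2909966 reads (SD, n = 4), against 11412384 ± 2623035 at 18°C and 9716405 ± 4520836 at 29°C. This difference from the other 8 libraries was within the spread (exact two-sided permutation test over all ways to pick 4 of 12 libraries, p = 0.333, smallest possible p 0.00202). Values are given below as normalised read counts, which are reads divided by one size factor per library. A floor of 3 reads corresponded to 1.97 to 7.65 on this scale, which covers counting error only, whereas the 95% intervals below come from the limma fit and the spread between libraries. Of 403 miRNA rows, 244 had enough reads to be tested, and the other 159 had a mean of at most 12.6 reads. Marker miRNAs of the head were present in every library: the neuronal list summed to 13188 to 22085, and the photoreceptor list (miR-7 and miR-210) to 200926 to 316296. Of the neuronal markers, miR-124-3p had a mean of only 158 reads and miR-124-5p of 956. The 30 testis rows together summed to 263 to 424 in a library and the 4 ovary rows to 122 to 537. The 11 early embryo rows summed to 654 to 5879, and no row of these 3 lists was at 0 in all libraries. Their part in the results below was not tested, and in whole heads fewer cells of a type and less of a miRNA per cell cannot be told apart.

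No miRNA stood apart from the midpoint at 25°C once p-values were adjusted over all 244 (limma, Benjamini-Hochberg adjusted p under 0.05, 0% called). At an unadjusted p under 0.05 there were 35 miRNAs (14.3%), 18 of them higher (7.38%) and 17 lower (6.97%) at 25°C. The quasi-likelihood test of edgeR on the recovered reads also called 0, with 29 at an unadjusted p under 0.05, whereas DESeq2 called 2, miR-1004-5p and miR-137-3p, with 27 at an unadjusted p. The smallest adjusted p from limma was 0.0970. Over all 244 miRNAs the difference from the midpoint had a median of -0.01 on the log2 scale, with 116 above and 128 below 0, and a median size of 0.17, where the median standard error was 0.169. Large differences at 25°C were few. Only 2 miRNAs differed from the midpoint by more than 1 on the log2 scale and 27 by more than 0.5, and of these 27 only miR-137-3p, miR-316-3p and miR-956-3p had a mean of at least 100 reads. For 197 miRNAs (80.7%) the 95% interval lay wholly within 1 on either side of the midpoint, so that a 2-fold departure lay outside it, and the same held for 153 of the 162 with a mean of at least 100 reads. The 25°C mean lay between the other 2 means in 140 miRNAs, above both in 54 and below both in 50.

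**Figure D1:**
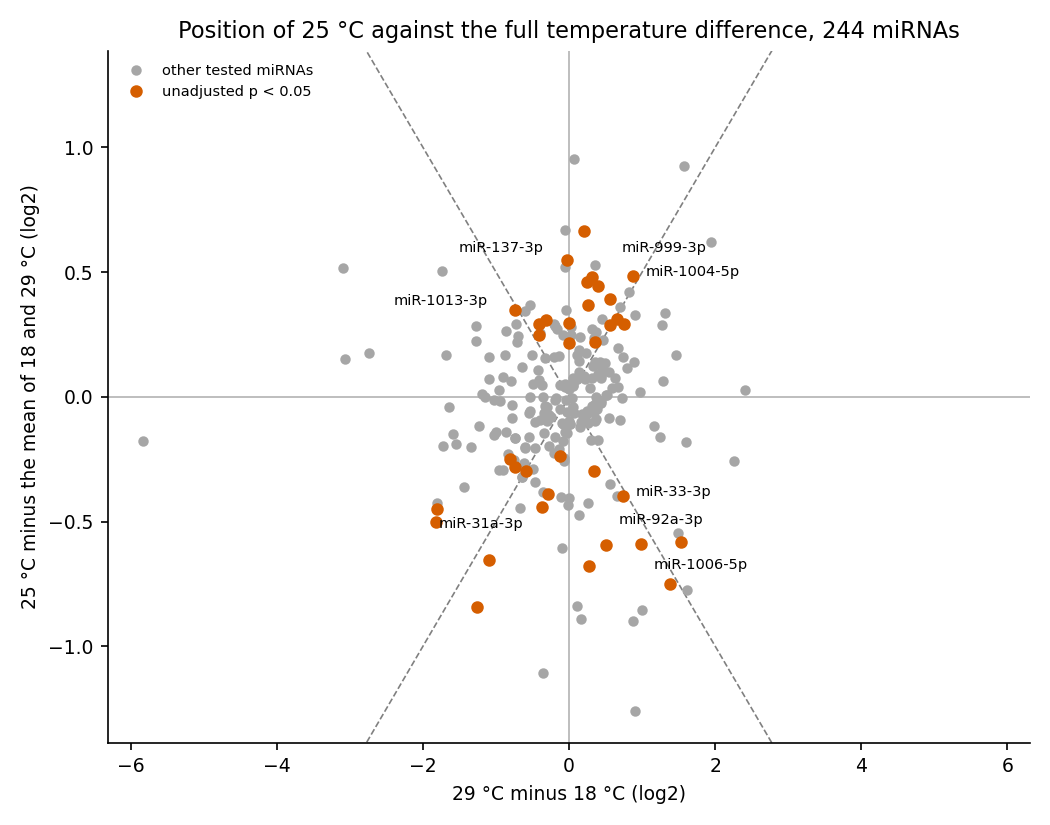
Each point is one of 244 miRNAs, with the log2 difference between 29°C and 18°C on the x axis and the log2 difference of 25°C from the mean of both on the y axis. Points outside the dashed lines have their 25°C level above (top) or below (bottom) both other temperatures, and most points lie within 0.5 of 0 on the y axis, as all but 27 miRNAs did.

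One miRNA peaked at 25°C, in that it was higher there than at 18°C and higher than at 29°C, each at an adjusted p under 0.05. It was 1 of 244 (0.41%), and no miRNA dipped by the same rule. This was miR-137-3p, the abundant arm of a conserved miRNA that in mammals is known for its role in maturing neurons, and whose hairpin lies between annotated genes at 2R:16065254-16065344 on the minus strand (build BDGP6.54, used for all positions below). Its normalised read count was 2659, 2441, 3092 and 3806 at 18°C (ZT3, ZT9, ZT15 and ZT21), 4117, 3599, 4838 and 4649 at 25°C, and 3509, 2798, 2629 and 2707 at 29°C. The 18°C and 29°C libraries covered much the same range, and only the 18°C ZT21 library reached into that of 25°C, where ZT9 was lowest. The log2 difference was 0.53 (SE 0.151, adjusted p = 0.0217) against 18°C and 0.56 (SE 0.151, adjusted p = 0.0214) against 29°C, whereas 29°C and 18°C differed by -0.03 (adjusted p = 0.921). Against the midpoint it was 0.55 higher (SE 0.131, 95% interval 0.27 to 0.83, adjusted p = 0.115). The call of a peak rested on few libraries: without any one of 7 libraries (18°C ZT3 and ZT9, 25°C ZT3, ZT15 and ZT21, 29°C ZT9 and ZT15) at least 1 of the pairwise adjusted p-values went over the threshold, to at most 0.0740 (both without 25°C ZT15 or ZT21), and with reads scaled to library totals (RPM) the one against 18°C was 0.0742. The other arm, miR-137-5p, was at 130 ± 24.5, 177 ± 12.3 and 179 ± 25.8 (SD, n = 4 each) from the lowest to the highest temperature, and so did not have a lower mean at 29°C than at 25°C.

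In 2 miRNAs (0.82%) all 4 libraries at 25°C lay above all 8 others, and in 0 (0%) below all 8. With libraries in random order, each outcome has a probability of 0.00202 per miRNA, so single cases among 244 can arise without any effect of temperature. The first of the 2 was miR-999-3p, from an intron of CASK, which encodes a scaffold protein of synapses (3R:21798227-21798331, minus strand). It was at 188265, 316810, 268544 and 337008 at 18°C, at 397458, 417680, 451555 and 420187 at 25°C, and at 359345, 332162, 296381 and 365073 at 29°C. The lowest 25°C library was thus above the highest of the others, and 18°C ZT3 was far below the rest. It was 0.48 above the midpoint (SE 0.135, adjusted p = 0.205). Its rise from 18°C to 25°C passed the test (0.64, SE 0.156, adjusted p = 0.0126), and its difference between 25°C and 29°C did not (0.32, SE 0.156, adjusted p = 0.231). The less abundant arm, miR-999-5p, had the same order of means, at 169 ± 35.6, 236 ± 15.6 and 203 ± 49.6, with overlapping libraries.

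The second was bantam-3p, which promotes tissue growth and protects cells from death by repressing the proapoptotic gene hid, and is one of the 5 most abundant miRNAs of these libraries. It was at 536137, 605062, 648889 and 623021 at 18°C, at 699314, 731008, 682396 and 683257 at 25°C, and at 626551, 506185, 630236 and 652293 at 29°C. The 25°C libraries stood in a narrow range above the others, whose 18°C and 29°C means were nearly equal, at 603277 ± 48240 and 603816 ± 66072. The difference from the midpoint was small, at 0.22 (SE 0.0909, 95% interval 0.02 to 0.41, adjusted p = 0.344), and neither pairwise difference passed the test (0.22 each, adjusted p = 0.171 and 0.230).

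**Figure D2:**
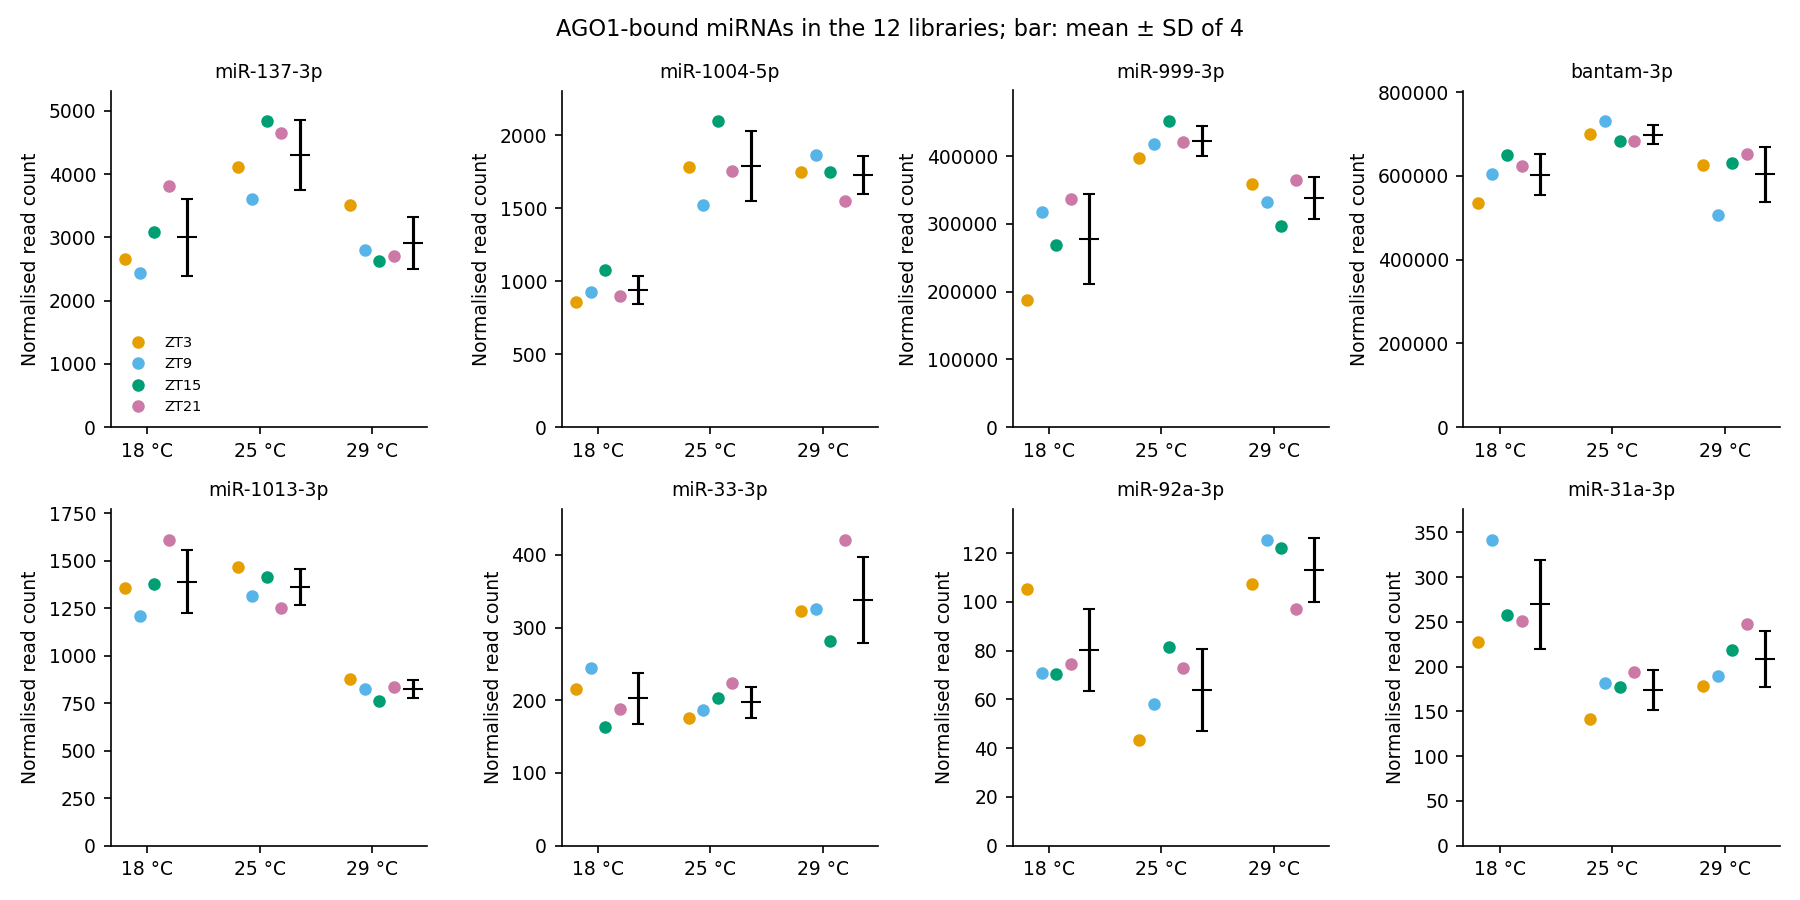
Normalised read counts of 8 miRNAs in each of the 12 libraries, by temperature and coloured by time point, with the mean ± SD of 4 libraries at the right of each group. In the plots of miR-999-3p and bantam-3p every 25°C point is above every other point, the miR-1004-5p points are low at 18°C only, and the miR-1013-3p points are low and the miR-33-3p points high at 29°C only.

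The 35 miRNAs at an unadjusted p under 0.05 were sorted by which of the 2 steps passed its own test. Across all 244 miRNAs, the step from 18°C to 25°C passed in 48 (19.7%), the step from 25°C to 29°C in 29 (11.9%) and the whole difference between 18°C and 29°C in 97 (39.8%). Both steps passed in 13, and in 12 of these both steps had the same direction, the exception being miR-137-3p. Of all 244, the step from 18°C to 25°C alone passed in 35 (a different set from the 35 above). The step from 25°C to 29°C alone passed in 16, and neither in 180. Of the 35, the step from 18°C to 25°C alone passed in 17, the step from 25°C to 29°C alone in 9, both in miR-137-3p only and neither in 8. The difference from the midpoint is proportional to the difference between these steps, so its adjusted p, which passed in none of the 35, is the test of whether the steps were unequal. The 35 were chosen by that same difference, in which steps of the same direction offset each other. Their split into single steps thus follows largely from the choice, and describes them without being a test of response types.

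Of the 17 miRNAs in which only the step from 18°C to 25°C passed, 8 rose and 9 fell. A step that did not pass is not shown to be absent, and the step from 18°C to 25°C is wider in degrees than the other. The one with the smallest p of all was miR-1004-5p, an arm of a mirtron in an intron of CG43707 (2L:3767621-3767688, plus strand). It was at 860, 927, 1073 and 900 at 18°C, at 1784, 1519, 2096 and 1755 at 25°C, and at 1748, 1863, 1749 and 1546 at 29°C. The 25°C and 29°C libraries overlapped throughout, and each was above every 18°C library. It rose by 0.92 between 18°C and 25°C (SE 0.120, adjusted p = 0.000303), differed by 0.04 between 25°C and 29°C (adjusted p = 0.867), and lay 0.48 above the midpoint (SE 0.104, 95% interval 0.26 to 0.71, adjusted p = 0.0970; adjusted p = 0.00937 from DESeq2). The other arm, miR-1004-3p, had a like course, at 897 ± 209, 1551 ± 412 and 1650 ± 175.

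Other miRNAs of this kind rose to a similar level at 25°C and 29°C. The level of miR-990-5p (intron of CG8910, 2R:16895223-16895308) was 2375 ± 358 at the lowest temperature, 3684 ± 316 at 25°C and 3718 ± 272 at the highest, 0.31 above the midpoint (adjusted p = 0.236). The level of miR-315-5p, which raises Wingless signalling by repressing its inhibitors Axin and Notum, was 13096 ± 786, 17239 ± 251 and 16801 ± 487, with a difference of 0.22 (adjusted p = 0.236). Its 25°C libraries, at 17441, 17039, 17006 and 17470, hardly differed from each other. The level of miR-8-3p, a member of the miR-200 family that promotes growth through insulin signalling in the fat body, was 639819 ± 84240, 948587 ± 147538 and 942311 ± 147295, and both the ZT3 and the ZT15 library were higher than the others at 25°C and at 29°C. The levels of miR-957-3p and miR-283-5p were 0.39 and 0.29 above the midpoint, and miR-987-5p, with 27968 ± 5227, 41768 ± 6615 and 33234 ± 6782, was 0.46 above it (adjusted p = 0.236) with a lower mean at 29°C than at 25°C.

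Among the 9 that fell between 18°C and 25°C, the most abundant was miR-34-5p, which is known to protect the ageing fly brain from degeneration. It was at 488996, 518228, 455466 and 390293 at 18°C, at 315184, 311861, 257595 and 292816 at 25°C, and at 237914, 302077, 266702 and 303995 at 29°C. All 18°C libraries were above the 8 others, and those at 25°C and 29°C shared one range. It fell by 0.65 from 18°C to 25°C (SE 0.121, adjusted p = 0.00272), and lay 0.28 under the midpoint (a difference of -0.28, SE 0.105, adjusted p = 0.273). The arm miR-31a-3p fell by 0.63 from 18°C to 25°C (SE 0.167, adjusted p = 0.0157), from 228, 342, 258 and 251 to 142, 182, 177 and 194, and was at 178, 189, 219 and 247 at 29°C. Its 25°C libraries were below all those of 18°C and overlapped those of 29°C, and the difference from the midpoint was -0.44 (SE 0.144, adjusted p = 0.236). The main arm of that hairpin, miR-31a-5p, was nearly level, at 32566 ± 4333, 32180 ± 4253 and 29716 ± 2585. The arm miR-276a-5p, at 2019 ± 520, 1367 ± 133 and 1631 ± 286, shares its reads with miR-276b-5p and cannot be assigned to one hairpin.

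In 9 miRNAs the step between 25°C and 29°C alone passed. Of these, 4 fell at 29°C. The clearest was miR-1013-3p, a mirtron arm from an intron of wts, which encodes the Hippo pathway kinase Warts (3R:30791636-30791696, minus strand). It was at 1358, 1210, 1377 and 1611 at 18°C, at 1468, 1315, 1411 and 1251 at 25°C, and at 876, 824, 762 and 834 at 29°C. The 18°C and 25°C libraries could not be separated, and every 29°C library was below all of them. The log2 difference of 25°C was -0.02 against 18°C (adjusted p = 0.922) and 0.72 against 29°C (SE 0.111, adjusted p = 0.000798), and the difference from the midpoint was 0.35 (SE 0.0964, 95% interval 0.14 to 0.56, adjusted p = 0.205). The others were miR-124-5p, from the hairpin of the neuronal miR-124 (913 ± 105, 1012 ± 123 and 728 ± 22.1), miR-278-5p and miR-965-5p, at 0.31, 0.25 and 0.29 above the midpoint.

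The other 5 of the 9 rose at 29°C: miR-33-3p, miR-92a-3p, miR-1006-5p, miR-964-5p and miR-1015-3p. The hairpin mir-33 lies in an intron of SREBP, which encodes a regulator of lipid synthesis (3L:19797961-19798059, plus strand). Its less abundant arm miR-33-3p was at 216, 245, 163 and 188 at 18°C, at 175, 187, 203 and 223 at 25°C, and at 323, 326, 282 and 421 at 29°C. Every 29°C library was above the 8 others, which overlapped. The difference of 25°C from 29°C was -0.77 (SE 0.165, adjusted p = 0.00908) and that from the midpoint -0.40 (SE 0.143, adjusted p = 0.252). The level of miR-92a-3p, from an intron of jigr1 (3R:25646506-25646600), was 105, 70.9, 70.5 and 74.6 at 18°C, 43.2, 58.2, 81.4 and 72.9 at 25°C, and 107, 126, 122 and 96.9 at 29°C. One 18°C library, ZT3, lay within the 29°C range, and one 25°C library, ZT3, lay under all the others. Its difference from the midpoint was -0.59 (SE 0.187, 95% interval -0.99 to -0.19, adjusted p = 0.236), on a mean of 89.6 reads.

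A straight response in degrees does not put 25°C at the midpoint, since 25°C is nearer to 29°C. On the line through the 18°C and 29°C levels, 25°C lies 63.6% of the way. Tested against this line, 0 of 244 miRNAs (0%) departed at an adjusted p under 0.05 in limma, with 33 (13.5%) at an unadjusted p under 0.05. edgeR called 0, and DESeq2 called 4 (miR-1013-3p, miR-137-3p, miR-33-5p and miR-4919-3p). Of these, miR-4919-3p stood at the threshold, with a DESeq2 adjusted p that rounds to 0.05. The smallest adjusted p from limma was 0.1002, for miR-1013-3p, which was 0.45 above the line (SE 0.0976).

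The position of 25°C was then described for the 39 miRNAs that differed between 18°C and 29°C at an adjusted p under 0.05 and by more than 2-fold. The median position of their 25°C means was 51.4% of the way from 18°C to 29°C (quartiles 38.5% and 68.9%, range -4.46% to 117%). It was under 63.6% in 27 and over it in 12. For the 15 that were higher at 29°C the median was 39.8%, and 11 of them were below the line at 25°C. For the 24 that were lower at 29°C the median was 52.7%, and 16 were above the line. With the 97 miRNAs that passed the adjusted p alone, the median was 54.9%, and 58 were under 63.6%. Split by direction, the median was then 55.9% for the 46 that were higher at 29°C, 26 of them below the line, and 53.05% for the 51 that were lower, 32 of them above it, so the gap between the directions was smaller than among the 39. These positions share the 18°C and 29°C values with the choice of the miRNAs, and were given no test.

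**Figure D3:**
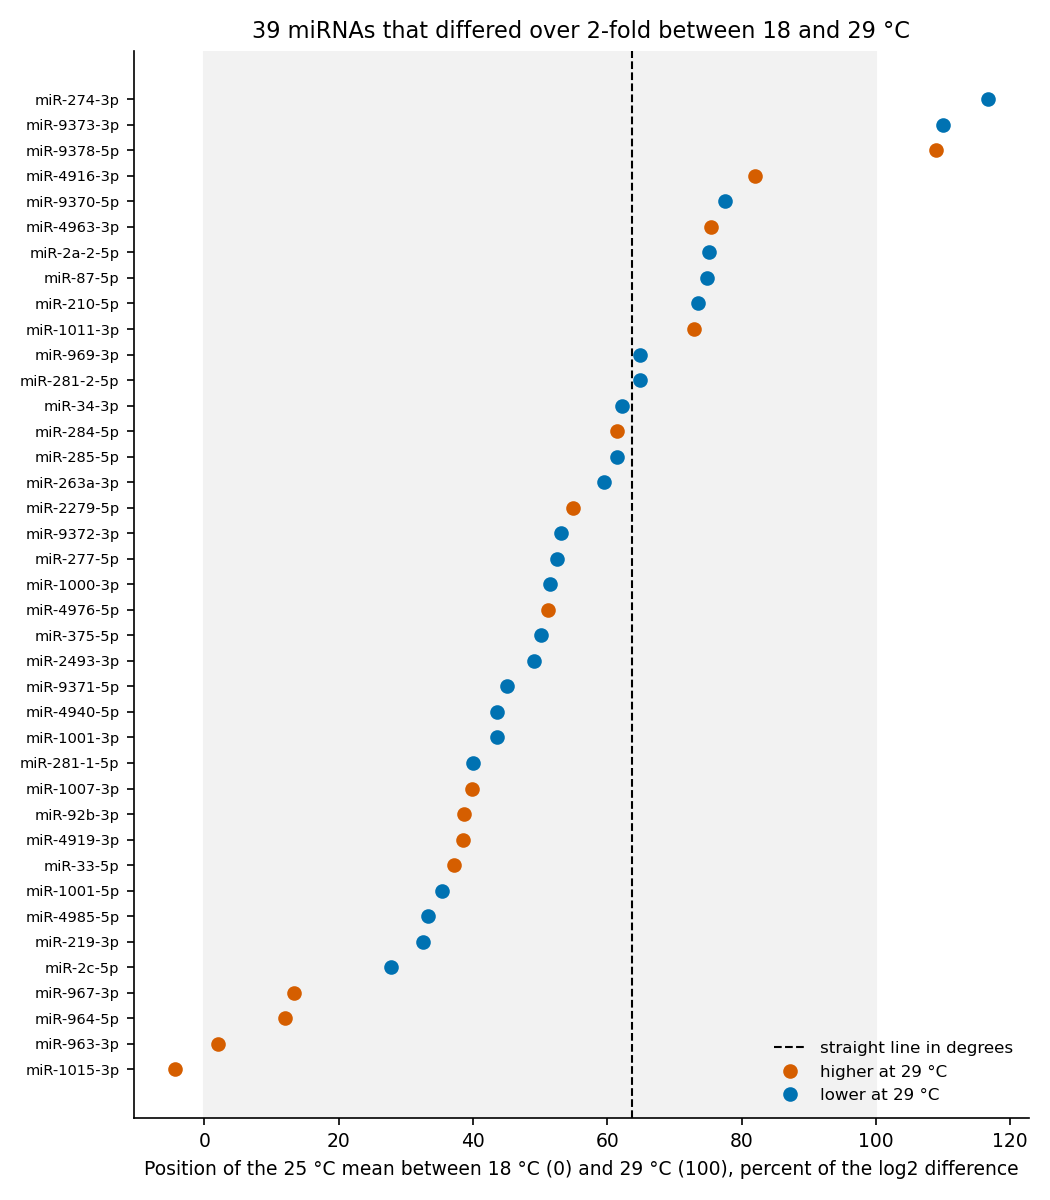
Position of the 25°C mean of 39 miRNAs between their 18°C level (0) and 29°C level (100), in percent of the log2 difference, with those higher at 29°C in orange and those lower in blue. The dashed line marks the 63.6% that a straight response in degrees gives, with 27 miRNAs to its left and 12 to its right.

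Of the 15 miRNAs that were more than 2-fold higher at 29°C, miR-33-5p was among the 11 below the line. The level of miR-33-5p was 30613, 30616, 31854 and 28038 at 18°C, 41870, 38519, 43665 and 42774 at 25°C, and 80158, 69423, 62013 and 76062 at 29°C. The 3 temperatures did not overlap. Both steps passed the test, at 0.46 (SE 0.103, adjusted p = 0.00773) from 18°C to 25°C and 0.78 from 25°C to 29°C (a difference of 25°C of -0.78, adjusted p = 0.000348), and 25°C was at 37.2% of the way, -0.33 from the line (SE 0.0903, adjusted p = 0.122). The level of miR-4919-3p, from an intron of Cyp4aa1 (2R:15945887-15945946), was 84.4 ± 10.2, 155 ± 24.4 and 409 ± 76.0, at 38.5% of the way and -0.57 from the line (SE 0.149, adjusted p = 0.122). A like position, 38.6%, was seen for miR-92b-3p, at 570 ± 12.2, 875 ± 39.96 and 1767 ± 449. Lowest in position were miR-1015-3p (-4.46%), miR-963-3p (1.95%), miR-964-5p (12.04%) and miR-967-3p (13.4%), which had means of 14.8, 12.3, 33.2 and 27.7 reads. Of these, miR-963 and miR-964 belong to a cluster known for its daily rhythm in the fat body of the head, and are also on the testis list.

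Above the line among the miRNAs that were lower at 29°C was miR-219-3p, from the hairpin of a conserved neuronal miRNA that in mammals is linked to the clock (3L:17315006-17315105). It was at 2461, 2416, 2635 and 2531 at 18°C, at 1809, 1792, 1791 and 2157 at 25°C, and at 958, 817, 1247 and 1181 at 29°C. The 3 temperatures did not overlap, 25°C was at 32.6% of the way, and the difference from the line was 0.40 (SE 0.117, adjusted p = 0.122). The arm miR-2c-5p, of a family known to repress proapoptotic genes, was at 658 ± 98.5, 515 ± 76.8 and 274 ± 63.5, at 27.8% of the way. By contrast, miR-284-5p (13179 ± 2005, 24500 ± 2351 and 36223 ± 2873) and miR-285-5p (3195 ± 435, 1531 ± 172 and 966 ± 112) lay at 61.5% and 61.4%, with differences from the line of -0.03 and 0.04.

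The balance of the 2 arms of a hairpin was compared in the same way, since it does not depend on how libraries are scaled. Of 89 hairpins whose arms each had 10 reads or more on average, 1 (1.12%) differed from the midpoint at an adjusted p under 0.05 in limma, and 11 at an unadjusted p. This was mir-1006, a mirtron in an intron of VhaSFD, which encodes a subunit of the proton pump of vacuoles (2L:16724795-16724858, minus strand). The log2 ratio of its 5p to its 3p reads was -4.83, -4.90, -4.88 and -5.004 at 18°C, -5.75, -5.62, -5.77 and -5.45 at 25°C, and -4.33, -4.12, -4.85 and -3.87 at 29°C. Every 25°C library was below all 8 others, and the 29°C ZT15 library lay with those of 18°C. The difference from the midpoint was -1.05 (SE 0.156, adjusted p = 0.000778), with differences of -0.75 against 18°C (adjusted p = 0.0117) and -1.36 against 29°C (adjusted p = 0.000221). Leaving out any one library gave -1.14 to -0.98 and adjusted p-values of at most 0.00682.

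The 2 arms of mir-1006 did not follow one course. The 3p arm, with a mean of 1027 reads, was at 545, 602, 787 and 1013 at 18°C, at 1427, 1182, 1093 and 845 at 25°C, and at 1108, 897, 1215 and 650 at 29°C. It was higher at 25°C than at the midpoint at each time point, by 0.45 (95% interval 0.01 to 0.88, adjusted p = 0.344), with overlapping libraries. The 5p arm was at 18.8, 19.5, 26.4 and 31.3 at 18°C, at 26.0, 23.5, 19.7 and 18.99 at 25°C, and at 54.9, 50.8, 41.6 and 43.4 at 29°C. The 29°C libraries were all above the 8 others, and those of 18°C and 25°C overlapped. The 5p values rest on 14 to 71 reads in a library, and when both arms had to have a mean of at least 100 reads, mir-1006 was not tested and 0 hairpins were called.

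**Figure D4:**
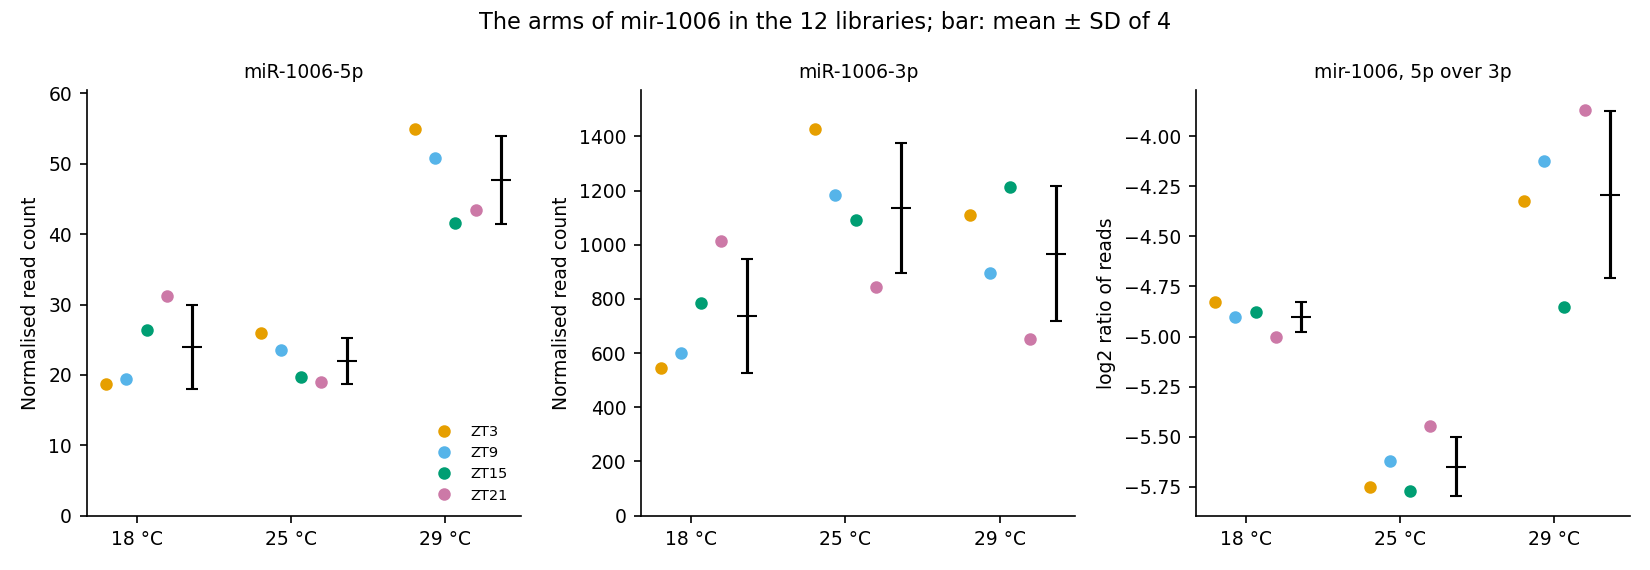
Normalised read counts of miR-1006-5p and miR-1006-3p and the log2 ratio of their reads in the 12 libraries, by temperature and coloured by time point, with the mean ± SD of 4 libraries. The ratio is lowest in all 4 libraries at 25°C, where the 5p arm is as low as at 18°C and the 3p arm has its highest mean.

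Other hairpins in order of p did not pass, with adjusted p-values of 0.188 and more. The ratio of mir-967 was 1.38 ± 0.458, 1.49 ± 0.556 and 0.01 ± 0.308 in order of temperature (SD, n = 4 each), 0.80 above the midpoint. That of mir-957 was -7.90 ± 0.197, -8.51 ± 0.146 and -8.21 ± 0.242, with a difference of -0.45. The ratio of mir-276b, whose 5p reads are shared with mir-276a, differed by -0.53. Those of mir-92a (0.87), mir-954 (-0.52), mir-31a (0.49), mir-13b-1 (0.27), whose 3p reads are shared with mir-13b-2 (-0.20), mir-137 (-0.32) and mir-2c (0.37) followed. Over all 89 hairpins the median size of the difference was 0.17.

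The mirtron list held miR-1004, miR-1006 and miR-1013, which stood near the top above, so the whole list was described. The counts, ranges and medians below include these members, and the highest difference is that of miR-1004-5p. Setting them beside all miRNAs is therefore not independent of how the list was chosen. Of 24 mirtron rows, 19 were tested and 0 were called. At 25°C, 14 of the 19 were above the midpoint and 5 below, with a median of 0.14, against 47.5% above and a median of -0.01 over all tested miRNAs. At an unadjusted p under 0.05 there were 3 higher (miR-1004-5p, miR-1006-3p and miR-1013-3p) and 2 lower (miR-1006-5p and miR-1015-3p). All 13 with a mean of at least 100 reads, from 10 hairpins, were above the midpoint, by 0.07 to 0.48 with a median of 0.29, where 46.9% of all 162 miRNAs of that depth were above it and their median was -0.01. Among these hairpins, mir-1009 overlaps a coding exon of CG3860 in the annotation used here, whereas mirtrons were described above as introns. Arms of one hairpin are not independent, the split at 100 reads was an alternative filter that was also applied to all miRNAs, and the list was given no test. The 6 with fewer reads had 5 below the midpoint.

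Mirtrons above the midpoint did not share one course over temperature. The most abundant, miR-1010-3p, was at 22419 ± 1335, 26029 ± 2446 and 24626 ± 1490, a difference of 0.14 (95% interval -0.04 to 0.33). The level of miR-1017-3p was 2865 ± 241, 4287 ± 299 and 5324 ± 728, with 25°C between the others, whereas miR-1012-5p had its highest mean at 25°C, at 1906 ± 498, 2157 ± 499 and 1648 ± 328. The mean of miR-1008-5p was also highest at 25°C, at 468 ± 94.5, 583 ± 85.3 and 462 ± 134. In 6 of the 13 the 25°C mean of normalised read counts was above both others. The share among all miRNAs of that depth was not computed, and the 54 of 244 given above used log2 means. The sum of all mirtron rows was 30822 to 36792 at 18°C, 36776 to 44041 at 25°C and 36295 to 41917 at 29°C.

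**Figure D5:**
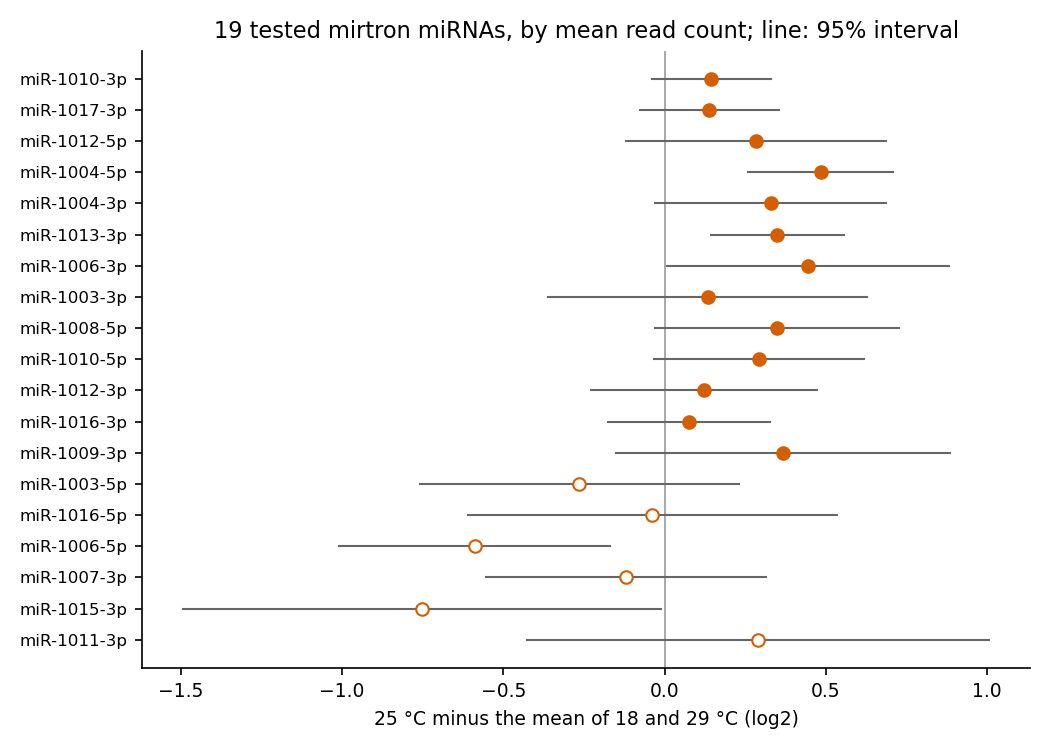
Log2 difference of 25°C from the mean of 18°C and 29°C for the 19 tested mirtron miRNAs, ordered by mean read count with the highest at the top, with 95% intervals. Filled points have a mean of at least 100 reads, and all 13 of them lie to the right of 0, with 3 intervals that do not reach 0. These 3 belong to miR-1004-5p, miR-1006-3p and miR-1013-3p, from the hairpins that led to the choice of the list.

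Lists of miRNAs by known role had 0 members called each. Of the 10 neuronal arms, 7 were above the midpoint at 25°C (median 0.20), led by miR-137-3p and miR-124-5p, which were the 2 at an unadjusted p under 0.05. Of 10 arms of miRNAs with metabolic roles, 8 were below it (median -0.11), among them both arms of mir-33 and of mir-14. The 3 at an unadjusted p under 0.05 were miR-33-3p below it and miR-278-5p (0.25) and miR-8-3p (0.29) above it. All but 1 of the 6 arms of the cluster of miR-277, miR-317 and miR-34, known for its part in ageing, were below it (median -0.13), and miR-34-5p was the only one at an unadjusted p under 0.05. Among 27 tested arms of miRNAs linked to daily rhythms, 8 were above and 19 below (median -0.08). These counts stand beside 116 above and 128 below over all miRNAs.

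Hairpins that lie in one cluster did not always move together. In the cluster of mir-12, mir-283 and mir-304, 5 of 6 arms were above the midpoint, with miR-283-5p at 8593 ± 998.1, 13662 ± 1668 and 14457 ± 1544, but miR-304-3p, at 219 ± 18.25, 145 ± 4.01 and 148 ± 31.5, was 0.30 below it (a difference of -0.30). In the cluster of mir-9c, mir-306, mir-79 and mir-9b, 7 of 8 arms were below it, by small differences with a median of -0.11. Of the arms with predicted sites in the 3′ UTR shared by timeless transcripts, the mRNAs of a core clock protein, 10 of 20 tested were above it (median 0.04), and of those with sites in the long isoforms, 34 of 75 rows (median -0.03). The 75 rows hold all 20 of the shared list, so these counts are not separate. The 6 tested early embryo rows (median -0.35), of which 2 are miR-6-3p at different hairpins with nearly the same values, and the 3 tested ovary rows (median -0.40) were all below the midpoint at 25°C, with ranges between libraries far wider than these differences.

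The composition of the libraries as a whole was not set apart at 25°C. The 5 most abundant miRNAs held 63.2% ± 1.59, 63.4% ± 0.851 and 64.5% ± 1.06 of the reads in order of temperature (SD, n = 4 each), a difference of -0.50 percentage points between 25°C and the other 8 libraries (exact two-sided permutation test, p = 0.531). Less abundant arms were taken as a share of the reads of both arms over the 89 hairpins of the arm comparison. Reads shared between hairpins were counted at each. These arms held 5.79% ± 0.904, 3.95% ± 0.700 and 3.55% ± 1.16, a difference of -0.72 percentage points (exact two-sided permutation test, p = 0.408). That test pools 18°C (5.10% to 7.02%) with 29°C (2.61% to 5.24%), whereas every 25°C library (3.53% to 4.99%) was below every 18°C library. The part of this in the fall of single less abundant arms, such as miR-31a-3p, was not tested. With that of depth, the permutation tests made 3 comparisons, and the exact permutation p-values adjusted over them were 0.531 each. Besides bantam-3p and miR-8-3p, the most abundant miRNAs were close to the midpoint. They were miR-14-3p, known for its roles in cell survival and insulin-producing neurons (-0.16, 95% interval -0.34 to 0.02), miR-184-3p, known for its role in the female germline (0.12, -0.18 to 0.42), and miR-276a-3p, which represses timeless (-0.07, -0.32 to 0.18).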

How the data were processed

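Small RNAs bound to AGO1 were sequenced by the authors from 12 head samples and assigned to mature miRNAs of miRBase 21 with miRExpress, whose version, adapter trimming and length limits were not given in the sources used here. The deposited table has 408 rows and 1 column per library. The authors deposited a normalised signal, namely reads over a size factor of the library, since 100% of 4896 values came out as whole reads within 0.01. Rows that repeated another (5) were kept once, which left 403 rows of 399 mature miRNAs, since 4 (miR-281-3p, miR-2a-3p, miR-2b-3p and miR-6-3p) stood at 2 hairpins each with nearly the same reads. Columns not used numbered 0.

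Tests used limma 3.58.1 (R 4.3.3; trend and robust estimation) on log2(value + 1), with 3 temperature groups over all 12 libraries and Benjamini-Hochberg adjusted p-values. The pseudocount of 1 understates changes of miRNAs with few reads. miRNAs passed filterByExpr of edgeR 4.0.16 on the recovered reads (244). Contrasts were 25°C against the midpoint, against the line in degrees, and against each temperature, with a peak or dip needing both of the last. Arm ratios were log2((5p reads + 0.5)/(3p reads + 0.5)), for hairpins whose arms each averaged 10 reads or more. Single library values had exact permutation tests. Deviations from the group means correlated between libraries of the same ZT at 25°C and 29°C (r 0.226 to 0.445 in 4 pairs). They did not between those of the same ZT at 18°C and the others (r -0.46 to 0.06 in 8 pairs). Some 18°C libraries correlated with libraries of another ZT (r up to 0.644). Scripts were tested on simulated data. Alternatives were edgeR, DESeq2 1.42.0, TMM, scaling to library totals (RPM), pseudocounts of 0.5 and 10, other filters, plain eBayes, a fold limit, time point as a block and leaving out each library.

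The miRNAs described were the 10 of smallest p in the main contrast, those that peaked, up to 10 each for the line and the arm ratio, the 5 most abundant, and members of lists. The lists, members and contrast were chosen with earlier results of these data known. Others named for a shared course, a cluster or an opposite arm were chosen after their values were seen. Hairpin positions came from the Ensembl annotation of BDGP6.54, matched by name for 233 of 237 hairpins. They are not coordinates used by the authors. No miRNA sequence is given.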

Additional observations from a re-analysis of the deposited data

Results flagged for a closer look

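Of 90 groups of 4 libraries (30 named miRNAs and arm ratios at each temperature), 3 held a library farther from its nearest neighbour, relative to the range of its group, than Dixon's 95% criterion allows. Chance flags about 5% of groups, or 4.5 of 90, so 3 is no more than that.

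At 18°C, ZT3 held 105 of miR-92a-3p (118 reads), against 70.5 to 74.6 in the rest. At 25°C, ZT21 held 2157 of miR-219-3p (2840 reads), against 1791 to 1809 in the remaining 3 libraries. The log2 arm ratio of mir-967 was 0.69 in the 18°C ZT3 library and 1.54 to 1.68 in the other 18°C libraries.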

How the results depend on the processing

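Libraries of the same ZT at 25°C and 29°C deviated together, and those of 18°C did not deviate with either at the same ZT. Each 18°C library did deviate with one of another ZT. The largest r were 0.644 (18°C ZT3 with 25°C ZT9), 0.641 (18°C ZT21 with 25°C ZT15), 0.565 (18°C ZT15 with 29°C ZT3) and 0.526 (18°C ZT9 with 29°C ZT21). The median over all 36 pairs of differing ZT was 0.02. By their labels the time points were thus not pairs over all 3 temperatures, and the reason was not tested. A replicate block for time point left 0 miRNAs that differed from the midpoint (33 at an unadjusted p), a peak of miR-137-3p (adjusted p = 0.0270 and 0.0329) and the call of mir-1006. For the step between 25°C and 29°C, called in 29 miRNAs, it gave 26, all among the 29 but without miR-1015-3p, miR-1000-5p and miR-996-5p. With the 8 libraries of these temperatures alone, an alternative chosen after seeing the data, the count was 35 with the block, 26 of them among the 29, and 24 without it. DESeq2 called 2 miRNAs against the midpoint (miR-1004-5p, adjusted p = 0.00937; miR-137-3p, 0.0359) and 4 against the line, where limma called 0. Leaving out one library gave 0 to 1 calls against the midpoint and 0 to 2 against the line. The calls came without the 18°C ZT21 library, where miR-137-3p was at an adjusted p of 0.0492 against the midpoint, and it and miR-1013-3p were each at 0.0292 against the line. The count of peaks was 0 with scaling to library totals (RPM), 0 with a fold limit of 1 on the log2 scale, and 0 to 1 with a library left out. The count of arm ratios fell from 1 to 0 when both arms needed a mean of 100 reads, because mir-1006 was then not tested. The number at an unadjusted p, 35 in the main fit, was 19 without 25°C ZT3, 22 without 25°C ZT9, and otherwise 25 to 39. The sign turned for 2 of the most abundant miRNAs, neither of which passed any test: with a library left out, miR-184-3p ranged from -0.0018 (without 25°C ZT3) to 0.23, and miR-276a-3p from -0.14 to 0.032 (without 25°C ZT21). Other causes were not tested. With 4 libraries of differing time points per temperature and a median standard error of 0.169, differences of the median size of 0.17 were not detectable, and low-read miRNAs were limited further.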

Other observations

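Some of the larger differences from the midpoint came from miRNAs whose level varied widely between libraries of one temperature. The level of miR-956-3p was 41.1, 556, 37.4 and 948 at 18°C (ZT3, ZT9, ZT15 and ZT21), 73.5, 60.2, 1043 and 65.3 at 25°C, and 83.5, 100, 1058 and 1472 at 29°C. In the same order of libraries, miR-958-3p had 0, 6, 0 and 29 reads at 18°C, 0, 0, 31 and 0 at 25°C, and 1, 1, 19 and 12 at 29°C. The reads of miR-314-3p were 3, 18, 4 and 25 at 18°C, 4, 0, 24 and 2 at 25°C, and 2, 1, 21 and 9 at 29°C. The high libraries were thus the same 5 for all 3 miRNAs, and they were of several temperatures and time points. Their differences from the midpoint at 25°C were -0.85, -1.26 and -1.11, with limma adjusted p-values of 0.830, 0.673 and 0.604. The level of miR-316-3p was 955, 2637, 583 and 327 at 18°C, 476, 443, 366 and 666 at 25°C, and 446, 1302, 455 and 2916 at 29°C, highest in the 29°C ZT21 and 18°C ZT9 libraries. These miRNAs were chosen after their values were seen.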
